A study of Mus musculus with 2 samples.

Results

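Transcripts of 8 complement genes (C2, C3, C4b, C7, Cfb, Cfd, Serping1 and Masp1) were followed across fibroblast-like cells and the other cell populations of mouse skeletal muscle, in 2 single-cell RNA libraries of tdTomato-positive cells. The genes are 8 of the 28001 features of both matrices and were selected by symbol, after an earlier analysis of these data had shown their levels in the fibroblasts, so those levels are given here as a description. Both libraries came from C57BL/6J mice of the genotype Hic1CreERT2/CreERT2;Rosa26LSLtdTomato/tdTomato, in which tamoxifen given at a chosen time turns on tdTomato for good in every cell expressing the transcriptional repressor Hic1 and in the descendants of that cell. For the library here called E10_P56 the dam was gavaged with 7.5 mg tamoxifen at embryonic day 10, and for adult_pulse the animals were injected at 8 weeks of age with 5 daily doses of 2.5 mg. For both, the labels give muscle taken at postnatal day 56, which for adult_pulse is also the age of the injections, and the study's text places the collection of the adult pulse later than that. The animals may therefore not be matched for age, and the time from labelling to collection of adult_pulse is uncertain. The labels do not settle which version of the 10x chemistry each library used. The tissue was pooled tibialis anterior muscle, sorted on tdTomato in successive rounds, so the libraries hold labelled mesenchymal cells and few leukocytes or myofibres. There was 1 library for each labelling time, and the libraries also differ in the Cell Ranger version named in the matrix headers (5.0.0 for E10_P56 and 3.0.2 for adult_pulse). Labelling time, age at collection, animals, library, chemistry and software version therefore cannot be told apart, no test between the libraries was possible, and every 95% interval covers counting error only.

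Complement is a cascade of secreted proteases and their substrates that marks surfaces for uptake and can end in a pore in a membrane. In the classical route the C1 complex, which holds the proteases C1r and C1s, cleaves C4 and then C2. In the lectin route complexes that hold MASP proteases do so. Fragments of C4 and C2 together form an enzyme that cleaves C3. In the alternative route, factor D (Cfd) cleaves factor B (Cfb) bound to C3 fragments, and the product again cleaves C3. C7 is one of the terminal components that build the pore. C1 inhibitor (Serping1) is a serpin that inactivates C1r, C1s and the MASP proteases. Liver is the main source of most of these proteins in plasma, Cfd is made chiefly by adipocytes, and many connective tissue fibroblasts make several of them locally.

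After cells with under 1500 UMIs or over 10% mitochondrial UMIs were removed, 6087 of 8236 barcodes remained for E10_P56 and 8567 of 9195 for adult_pulse, with medians of 7648 and 7344 UMIs per cell. A UMI marks 1 captured transcript molecule. The libraries shared 15 barcodes, 11 of them among the kept cells. Clusters were named from marker lists, and 4222 cells of E10_P56 (69.4% of the library) and 7090 of adult_pulse (82.8%) were fibroblast-like, with markers such as Pdgfra, Dpt, Ly6a and Cd34. The other populations were pericyte-, vascular smooth muscle cell (VSMC)-, smooth muscle cell progenitor (SMCP)-, tenocyte-, perineurial-, endoneurial-, Schwann-, osteochondral- and endothelial-like cells and cycling cells. When both libraries were clustered jointly, 8177 of the 11312 fibroblast-like cells fell in clusters drawn at least 90% from their own library. The fibroblast-like cells were therefore clustered again with each gene scaled within its library and with all complement genes left out, which gave 8 clusters that drew on both libraries. F0 was led by Kcnk2, Smoc2 and Hmcn2, F1 was marked by Pi16, Dpp4, Smpd3 and Dact2, and F2 by Fam167a, Stmn4 and Efemp1. F3 was marked by Car3, Fabp4, Apoe, Cxcl13, Fgf10 and Pparg, and F4 by Comp, Mgp and Meox1. Markers of F5 were Fmo2, Gdf10 and Hhip, those of F6 Saa3, Cthrc1 and Timp1, and those of F7 Cxcl5 and Ccl2. F6 held 519 cells of E10_P56 and 89 of adult_pulse, and F7 held 163 and 12, too few in adult_pulse for a level. Saa3 was absent from the adult_pulse cells of F6, so it describes F6 of E10_P56 only. Whether F6 holds the same kind of cell in both libraries was not tested.

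Promoters are shown for C3, C7 and Cfd, the 3 of the 8 members matched in the table of RefSeq promoter windows used here, which run from 250 bases before to 50 bases after the annotated start in GRCm38.p6. Their levels differed in pattern among the fibroblasts: C3 was high in F1, F3 and F6, C7 was highest in F5, and nearly all Cfd molecules of E10_P56 lay in a few cells of F3. C3 lies on the minus strand and its window is chr17:57228087-57228386, C7 lies on the minus strand with chr15:5063724-5064023, and Cfd lies on the plus strand with chr10:79890603-79890902. They are printed 5′ to 3′ on the strand of the gene, with capitals for every match, on either strand, to a TATA box (TATAAA), a C/EBP-like half-palindrome pair (TTGCNNAA) or a GAS element of the kind STAT factors bind (TTCNNNGAA).
C3 promoter: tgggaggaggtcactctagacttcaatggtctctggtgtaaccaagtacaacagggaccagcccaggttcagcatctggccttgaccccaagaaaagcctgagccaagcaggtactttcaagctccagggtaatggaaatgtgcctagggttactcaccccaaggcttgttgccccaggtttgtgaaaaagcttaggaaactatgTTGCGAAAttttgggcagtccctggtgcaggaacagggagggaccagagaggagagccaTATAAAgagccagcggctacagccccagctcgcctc
C7 promoter: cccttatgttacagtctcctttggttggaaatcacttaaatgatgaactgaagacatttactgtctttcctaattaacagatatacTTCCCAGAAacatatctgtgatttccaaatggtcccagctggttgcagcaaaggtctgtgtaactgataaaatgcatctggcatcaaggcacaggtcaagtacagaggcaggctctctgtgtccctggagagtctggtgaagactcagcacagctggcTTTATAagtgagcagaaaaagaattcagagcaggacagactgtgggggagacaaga
Cfd promoter: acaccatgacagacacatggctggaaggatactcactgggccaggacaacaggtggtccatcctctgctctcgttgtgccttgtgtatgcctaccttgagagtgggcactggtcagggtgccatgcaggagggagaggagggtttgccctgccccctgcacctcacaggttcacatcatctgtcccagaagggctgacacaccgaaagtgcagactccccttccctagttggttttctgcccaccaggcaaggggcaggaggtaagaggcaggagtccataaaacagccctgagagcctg
The C3 window held the C/EBP-like letters at bases 206 to 213 and TATAAA at bases 265 to 270. The C7 window held GAS letters at bases 87 to 95 and the TATA letters on the other strand at bases 245 to 250. Counted from the annotated start, the TATA letters began at position 15, downstream of it, in C3 and at -6 in C7. The Cfd window held none of the 3 patterns. Of all 32851 promoter windows, 13.6% held TATAAA, 10.8% the C/EBP-like letters and 8.30% the GAS letters, so each pattern is common and a match is a description of the letters only.

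The positions of the members in GRCm38 bear on how their reads can be counted. C4b (17: 34728380 to 34743882), Cfb (17: 34856374 to 34862518) and C2 (17: 34862604 to 34898265) lie on the minus strand of the same stretch of chromosome 17, and only 85 bases separate Cfb from C2. The feature list holds C4b but not its near copy C4a. Of the 411 windows of 90 bases in the last 500 bases of the C4b transcript, 83 also occur in a C4a transcript, so the level of C4b is uncertain to that extent. Serping1 lies on chromosome 2 (84765387 to 84775444, minus strand) and Masp1 on chromosome 16 (23449417 to 23520815, minus strand).

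Among the genes of the classical route, C4b was highest in fibroblast-like cells. Its level there was 634 CPM (UMIs of the gene per 1000000 UMIs of the population) in E10_P56 (95% interval 627 to 641) and 267 (263 to 271) in adult_pulse, against 69.7 (57.1 to 84.2) and 63.2 (51.2 to 77.1) in pericyte-like cells. In adult_pulse the endothelial-like cells followed at 255 CPM (193 to 331), with an interval that overlapped that of the fibroblasts, but 56 UMIs in 53 cells carried this value and only 5.66% of the cells held a UMI. In E10_P56 the 20 endothelial-like cells held none.

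C2 did not follow C4b. It was highest in perineurial-like cells, the flattened cells that wrap nerve bundles, at 352 CPM (315 to 391) in E10_P56 and 370 (284 to 474) in adult_pulse. Schwann-like cells held 105 (86.3 to 126) and 116 (70.0 to 182) CPM and SMCP-like cells 87.9 (76.8 to 100.1) and 72.2 (54.2 to 94.2), and the Schwann and SMCP intervals overlapped in both libraries. Osteochondral-like cells held 30.4 (16.6 to 51.1) and 64.9 (47.7 to 86.4), above the fibroblasts in adult_pulse only. Fibroblast-like cells held 58.6 CPM (56.4 to 60.9) in E10_P56 and 27.3 (26.0 to 28.7) in adult_pulse. Pericyte-like cells held 14 and 1 C2 UMIs, or 9.12 and 0.658 CPM.

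C3, on which all routes converge, was highest in fibroblast-like cells in both libraries, at 2060 CPM (2047 to 2074) in E10_P56 and 1331 (1322 to 1341) in adult_pulse. The next population was VSMC-like in E10_P56 (355 CPM, 329 to 382) and pericyte-like in adult_pulse (310 CPM, 282 to 339). Cfb stood at 56.6 CPM (54.4 to 58.8) in the fibroblast-like cells of E10_P56 and at 17.1 (16.0 to 18.2) in those of adult_pulse. In adult_pulse the VSMC-like cells had the same Cfb level, 17.2 CPM, but from 3 UMIs in 26 cells, so its interval ran from 3.54 to 50.2. Each other population of adult_pulse held at most 7 Cfb UMIs, and each neighbouring pair in the order overlapped.

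C7 was the only terminal component above 1 CPM in fibroblast-like cells. It was highest in fibroblast-like cells at 84.2 CPM (81.6 to 87.0) in E10_P56 and 54.9 (53.0 to 56.8) in adult_pulse. Perineurial-like cells of E10_P56 came next at 22.9 CPM (14.3 to 34.6), with an interval that overlapped that of osteochondral-like cells. This value came from 22 UMIs, and only 2.27% of the 176 cells held a UMI. Serping1, the inhibitor, was the most widely spread of the members. Fibroblast-like cells held 2309 CPM (2295 to 2323) in E10_P56 and 1945 (1934 to 1957) in adult_pulse, perineurial-like cells 2011 (1922 to 2103) and 1728 (1536 to 1937), and SMCP-like cells 1289 (1245 to 1334) and 709 (650 to 772). The fibroblast and perineurial intervals overlapped in adult_pulse and not in E10_P56.

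Masp1, a protease of the lectin route, was near the limit of detection. Fibroblast-like cells held 3 Masp1 UMIs in each library (0.0672 and 0.0513 CPM), all 3 in F5 in E10_P56 and 1 each in F1, F4 and F5 in adult_pulse. Osteochondral-like cells held 4 UMIs in 65 cells and 2 in 68 cells, or 8.70 CPM (2.37 to 22.3) and 2.76 CPM (0.335 to 9.98). No level among the fibroblast clusters can be read from so few molecules.

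In all, 6 members were highest in fibroblast-like cells in E10_P56 and 4 in adult_pulse. The share of all genes with that rank is not given here, so nothing is read from these counts. Cfd was among the 6 only through a few cells with adipocyte markers. Without cells holding at least 3 such markers, fibroblast-like cells of E10_P56 held 8.16 Cfd CPM, under pericyte-like (15.6) and perineurial-like cells (18.7). With a finer clustering (resolution 1.0) these counts were 4 and 1, so the top rank depends on where the population is drawn.

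**Figure D1:**
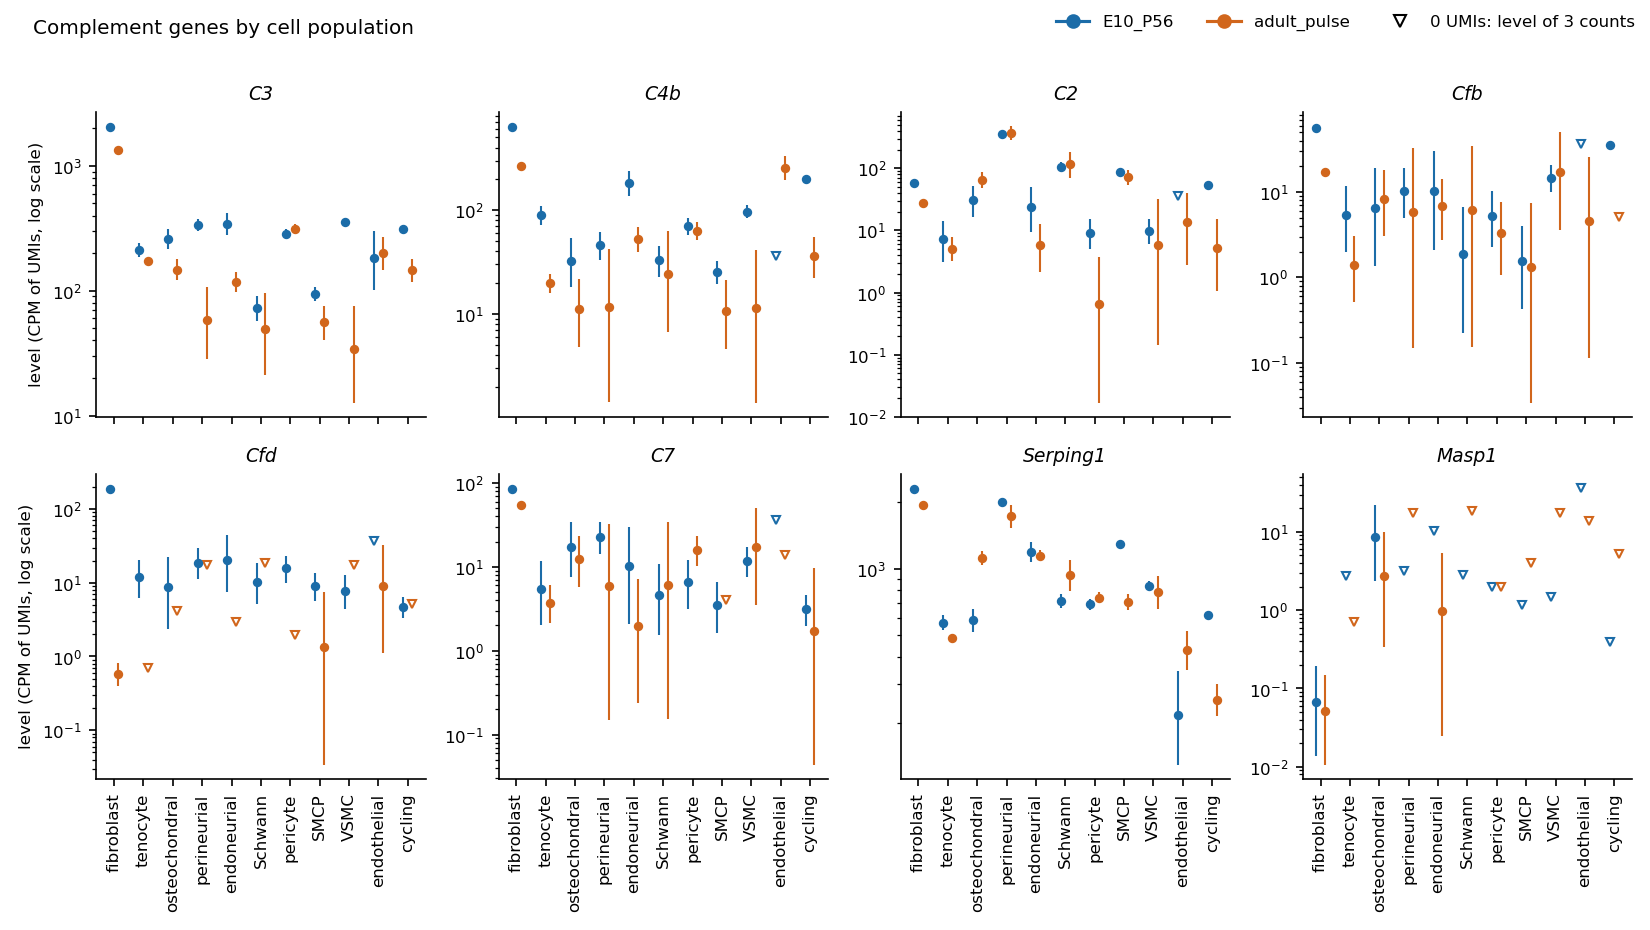
Level of each complement gene (CPM of UMIs, log axis) in 11 cell populations of E10_P56 (blue) and adult_pulse (orange), with exact 95% Poisson intervals and open triangles at the level of 3 counts where a population held 0 UMIs. At the clustering used, C3, C4b and C7 are highest in fibroblast-like cells of both libraries, C2 peaks in perineurial-like cells, and Serping1 stays above 200 CPM in every population of both libraries.

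Counted against 3 other cell types, most members were higher in fibroblast-like cells, but this contrast belongs to the choice of the members and nothing is read from it. At least 100 UMIs in the paired populations were held by 7 members in E10_P56 and by 6 in adult_pulse. Over pericyte-like cells, 7 of 7 and 6 of 6 were at least 2-fold higher in fibroblast-like cells, where 16.8% and 15.4% of all genes with as many UMIs were. Without the cells that held at least 3 adipocyte markers, Cfd no longer passed in E10_P56 and the count was 6. Over tenocyte-like cells the counts were again 7 of 7 and 6 of 6, beside 13.6% and 12.9% of all genes, and 6 in E10_P56 without those cells. Over perineurial-like cells they were 5 of 7 and 4 of 6, beside 13.0% and 26.0%, and C2 and Serping1 were those that did not pass. Without the cells with adipocyte markers, 4 passed in E10_P56.

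Free RNA can give UMIs in any droplet, so the levels outside the fibroblasts were set beside those of 10 other abundant fibroblast transcripts (Dcn, Gsn, Dpt, Lum, Col1a1, Col1a2, Col3a1, Mfap5, Pi16 and Clec3b). In VSMC-like cells of E10_P56 these stood at a median of 18.2% of their fibroblast level (15.6% to 20.8%). C3 stood at 17.2%, C4b at 15.2%, C2 at 16.6% and C7 at 13.9%, within or just under that range, while Serping1 stood at 36.2% and Cfb at 25.9%. In pericyte-like cells the list had medians of 10.8% (4.81% to 17.5%) in E10_P56 and 18.6% (15.2% to 28.3%) in adult_pulse, and C3 (13.8% and 23.3%) and C4b (10.99% and 23.7%) lay inside those ranges. Serping1 lay above them in both libraries, at 29.9% and 38.1%, and C2 stood at 15.6% and 2.41%. The part of free RNA in these levels was not tested further.

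The share of cells with a UMI was compared after every cell was thinned to 1500 UMIs, and it differed widely between the members. Serping1 was found in 89.7% of fibroblast-like cells of E10_P56 (88.7% to 90.6%) and 89.5% of those of adult_pulse (88.7% to 90.2%), and without thinning in 98.7% and 99.1%. C3 was found in 75.9% (74.5% to 77.2%) and 53.7% (52.5% to 54.8%), and without thinning in 89.9% and 74.2%. C4b was found in 39.3% and 15.1% (64.5% and 28.1% without thinning), C7 in 10.1% and 6.12% (32.0% and 17.2%), C2 in 7.30% and 3.37% (27.5% and 12.6%) and Cfb in 6.75% and 2.33% (29.8% and 10.8%). As the background, VSMC-like cells (median 7292 and 6205 UMIs) held C3 in 18.3% and 3.85%, C4b in 6.99% and 0 of 26 cells, and Cfb in 1.31% and 0 of 26 cells. Schwann-like cells (median 7086 and 5911 UMIs) held C3 in 8.57% and 4.76% and C4b in 2.86% and 0 of 21 cells. In E10_P56 the fibroblast shares of C3, C4b and Cfb lay above the intervals of both backgrounds. In adult_pulse only C3 did so, since the few background cells allowed up to 13.2% (VSMC-like) and 16.1% (Schwann-like) for a share of 0, which covers Cfb in both and C4b in the latter. By contrast, C2 was found in larger shares of Schwann-like cells (21 of 140 and 3 of 21) than of fibroblast-like cells.

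The molecules of the members were not spread alike among the fibroblasts. The 1% of fibroblast-like cells with the most UMIs of a gene held 6.11% and 4.46% of its UMIs for Serping1 and 6.83% and 8.72% for C3, in E10_P56 and adult_pulse. The same 1% held 10.1% and 23.4% for C4b, 14.6% and 23.8% for C2, 15.7% and 20.3% for Cfb and 17.4% and 25.5% for C7. For Cfd it held 96.5% in E10_P56, where 10 cells alone carried 95.9% of the UMIs.

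Within the fibroblasts the members parted into several patterns. C3 was high in F1, F3 and F6 of both libraries: F1 held 3182 CPM in E10_P56 and 3279 in adult_pulse, F3 held 2447 and 2131, and F6 held 2249 and 3315. F2 held 2113 and 1023 CPM. F4 held 1033 and 491 CPM, and F0, the largest cluster of adult_pulse, held 1194 and 366. The highest cluster exceeded the lowest 5.63-fold in E10_P56, where F7 was lowest, and 9.06-fold in adult_pulse.

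C4b was highest in F6, F1 and F3 and varied more. F6 held 1208 CPM (1186 to 1230) in E10_P56 and 1058 (999 to 1119) in adult_pulse, F3 held 745 and 1104, and F1 held 777 and 472. In F0 it stood at 149 and 29.3 CPM, and in F2 at 259 and 23.0 CPM. The range from highest to lowest cluster was 8.09-fold in E10_P56 and 48.0-fold in adult_pulse. C3 and C4b thus differed in F2, a cluster that kept C3 at 1023 CPM in adult_pulse with C4b at its lowest.

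Cfb, the substrate of factor D, was highest in the same 3 clusters as C4b, F6 (116 and 44.0 CPM), F1 (60.1 and 34.2) and F3 (51.3 and 38.9), and lowest in F0 (16.6 and 5.49) and F2 (18.8 and 3.28). In adult_pulse the intervals of the 3 highest clusters overlapped. The range was 7.02-fold in E10_P56 and 13.4-fold in adult_pulse.

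C2 and C7 peaked in F5, a cluster marked by Gdf10, a ligand of the TGF-beta family, and Hhip, an inhibitor of hedgehog signalling. C2 stood there at 164 CPM (143 to 187) in E10_P56 and 158 (145 to 172) in adult_pulse, ahead of F6 (109 and 73.9) and F3 (81.4 and 78.1), and fell to 11.3 and 4.73 CPM in F0. C7 stood in F5 at 432 CPM (398 to 469) and 358 (338 to 380). The next cluster for C7 was F4 in E10_P56 (119 CPM, 107 to 132) and F6 in adult_pulse (154 CPM, 132 to 179), and F6 of E10_P56 was near the bottom (54.8 CPM, 50.3 to 59.6). The range over clusters was 14.5-fold and 49.6-fold for C2 and 13.3-fold and 25.6-fold for C7.

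Serping1 varied least, by 2.90-fold over the clusters of E10_P56 and 1.69-fold over those of adult_pulse. In E10_P56 it was highest in F1 (3325 CPM) and in adult_pulse in F6 (2810 CPM, 2713 to 2909) and F5 (2723 CPM, 2667 to 2780), whose intervals overlapped. F3, high in C3 and C4b, held 1526 CPM of Serping1 in E10_P56, the second lowest level there, and 1752 in adult_pulse, the middle of the order.

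The order of the 7 clusters measured in both libraries was close for C2 (Spearman's rho 0.929) and Cfb (0.893), less so for C3 (0.750), C4b (0.679) and Serping1 (0.643), and loose for C7 (0.25). These are descriptions over 7 clusters that share a library. Of 136 comparisons of a member between a pair of clusters, 15 went in opposite directions in the libraries beyond counting error. These were 6 for C7, 4 for Serping1, 3 for C3, 2 for C4b and none for C2, Cfb or Cfd. Pairs reuse the same clusters, and for genes with many UMIs a small difference passes, as for Serping1 in F0 over F3 (1.41 and 0.952). The share of all genes with such pairs is not given here, so nothing is read from these counts. Sequencing depth differed between the clusters. The median UMIs per cell were highest in F6 (16776 and 10295) and were 11588 and 9185 in F3 and 6894 and 7265 in F0. They were 7498 and 6898 in F1, where C3, C4b and Cfb were high, and 8935 and 9321 in F2, where Cfb was low. A level in CPM is scaled to all UMIs of the cluster, and the part of depth in these differences was not tested further.

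Other gene lists also varied over these clusters and are given here as values. The summed level of 11 measured acute-phase and NF-kB-response genes was 3251 CPM in F6, 3042 in F3, 1354 in F1 and 680 in F2 of E10_P56, and 1419, 3575, 1448 and 806 CPM in the same clusters of adult_pulse. It was thus no higher in F6 than in F1 of adult_pulse. It was highest of all in F7 of E10_P56 (11960 CPM), the cluster with the lowest C3 (565 CPM, 528 to 604) and Serping1 (1145 CPM) of that library. Saa3, an acute-phase protein gene, had 0 UMIs in all fibroblast-like cells of adult_pulse. The summed level of 12 interferon-gamma-response genes was highest in F6 of both libraries (3987 and 2648 CPM), with 1914 and 1641 CPM in F5. Genes induced by tissue dissociation, 10 in all, summed to 13076 and 24470 CPM in F3 and to 4995 and 6246 in F2. They summed to 5997 and 8977 CPM in F6, 7597 and 8096 in F1 and 7892 and 12998 in F0. Leukocyte markers summed to at most 50.2 CPM in any of these clusters, the highest being F6 of E10_P56, with Ptprc at 0 there. The part of each of these in the complement levels was not tested.

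A split of the fibroblast-like cells by Pi16 and Col15a1, the genes used in the study for 2 broad fibroblast types, needed no further clustering and gave smaller differences. At 1500 UMIs per cell, 1622 and 2845 fibroblast-like cells of E10_P56 and adult_pulse held Pi16 but not Col15a1, and 926 and 1597 held Col15a1 but not Pi16. C3 was higher in the Pi16 cells of both libraries, at 2491 against 1721 CPM (1.45-fold, 1.42 to 1.48) in E10_P56 and 1985 against 743 CPM (2.67-fold, 2.61 to 2.73) in adult_pulse. Cfb was also higher there, 2.11-fold (1.86 to 2.40) and 1.34-fold (1.14 to 1.60), as was Serping1, 1.63-fold and 1.32-fold. C4b was 1.93-fold higher (1.864 to 2.002) in the Pi16 cells of E10_P56 and 1.02-fold (0.977 to 1.06) in those of adult_pulse, where the interval spans 1. C2 was level in E10_P56 (1.0-fold, 0.897 to 1.12) and lower in the Pi16 cells of adult_pulse (0.517-fold, 0.448 to 0.596). C7 differed little between the Pi16 and the Col15a1 cells, at 0.940-fold (0.857 to 1.03) and 1.12-fold (1.01 to 1.24). Another 1415 and 1991 cells held neither gene. They had the highest C2 (65.3 and 46.15 CPM) and C7 (98.2 and 79.5 CPM) of the split, and the highest C4b of adult_pulse (329 CPM).

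Cfd, the protease that starts the alternative route, gave the largest difference between the libraries. Most of its UMIs in E10_P56 lay in a handful of cells, though a difference remained without them, as given below. Fibroblast-like cells of E10_P56 held 8396 Cfd UMIs (188 CPM, 184 to 192) and those of adult_pulse 34 (0.582 CPM, 0.403 to 0.813). In E10_P56, F3 alone held 8090 of them (886 CPM), and 4 cells of F3 held 3496, 2805, 1553 and 178. The same 4 cells held 101, 136, 110 and 50 UMIs of Adipoq, the adipocyte hormone adiponectin, and 21, 19, 19 and 9 of Plin1, which coats fat droplets. They held no UMI of Pdgfra, a defining marker of the fibroblasts, and 0 to 4 of Dcn, which goes against their fibroblast-like name.

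Cells with a UMI of at least 3 of 8 adipocyte markers (Adipoq, Plin1, Cidec, Retn, Lep, Plin4, Pck1 and Adrb3) were then set apart, a step added after these values were seen. In E10_P56 there were 7 such cells, 6 of them fibroblast-like and all 6 in F3, and they held 8033 of the 8548 Cfd UMIs of the library (94.0%). In adult_pulse there were 3 such cells, all in F3, with 3 of 37 Cfd UMIs (8.11%). Adipoq and Cfd did not always go together. In E10_P56 a cell with 42 Adipoq and 19 Plin1 UMIs held 0 Cfd, and in adult_pulse a cell with 85 Adipoq and 28 Plin1 UMIs among 18814 held 3 Cfd.

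Without these cells the fibroblast-like cells of E10_P56 held 8.16 Cfd CPM (7.34 to 9.05) and those of adult_pulse 0.531 (0.361 to 0.753), and F3 held 6.34 and 2.47 CPM. The E10_P56 level was then near that of other cell types of the library, at 7.81 CPM in VSMC-like, 10.3 in Schwann-like and 15.6 in pericyte-like cells, whose intervals reached from 4.46 to 23.2. In adult_pulse VSMC-, Schwann- and pericyte-like cells held 0 Cfd UMIs, which allows up to 3 UMIs in each. The shares of cells with Cfd cover all fibroblast-like cells, those with adipocyte markers included. Thinned to 1500 UMIs, 1.94% (1.55% to 2.40%) of E10_P56 and 0.0987% (0.0397% to 0.203%) of adult_pulse held Cfd. Beside these stood 0.873% (0.106% to 3.12%) of VSMC-like cells and 0 of 140 Schwann-like cells in E10_P56. The fibroblast share there thus lay inside the interval of a background population. Without thinning the E10_P56 shares were 7.91%, 6.11% and 7.86%. The part of free adipocyte RNA in the low Cfd levels of E10_P56 was not tested.

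**Figure D2:**
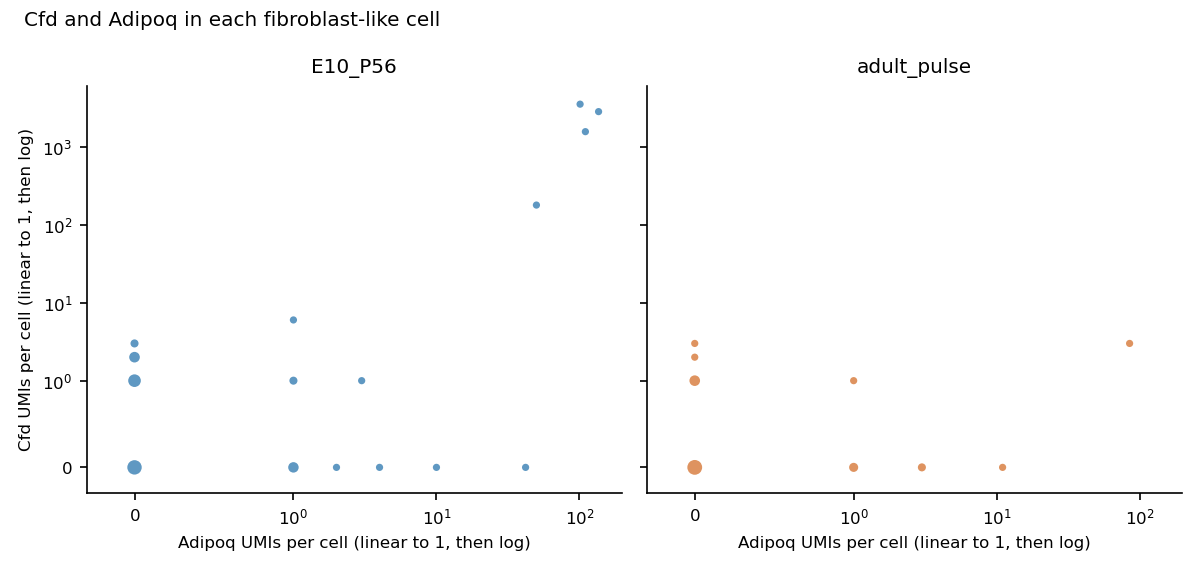
UMIs of Cfd against UMIs of Adipoq in each fibroblast-like cell of E10_P56 (left, blue) and adult_pulse (right, orange), on axes linear up to 1 and logarithmic beyond, with larger dots where more cells share a pair of values. The 4 cells of E10_P56 with 178 to 3496 Cfd UMIs all hold at least 50 Adipoq UMIs, no other fibroblast-like cell of either library holds more than 6 Cfd UMIs, and 1 cell of adult_pulse holds 85 Adipoq with 3 Cfd.

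The cells with adipocyte markers in the fibroblast-like population of E10_P56 also held other members, at 1761 CPM for C3 and 1077 for C4b, while Serping1 was low at 193 CPM against 2309 in all fibroblast-like cells. In adult_pulse the corresponding levels were 413, 138 and 138 CPM. Leaving these cells out changed the fibroblast levels of C3 (2061 and 1332 CPM), C4b (633 and 267) and C2 (58.6 and 27.3) by less than their intervals.

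Between the libraries, each of the 7 members that reached 100 UMIs among the fibroblasts was lower in adult_pulse. Of all 12377 genes with as many UMIs, 7028 were lower there too. The ratio of adult_pulse to E10_P56 was 0.842 (0.835 to 0.850) for Serping1, 0.652 (0.621 to 0.683) for C7, 0.646 (0.640 to 0.652) for C3, 0.466 (0.437 to 0.496) for C2, 0.421 (0.413 to 0.429) for C4b, 0.302 (0.280 to 0.325) for Cfb and 0.00309 (0.00214 to 0.00432) for Cfd. At least 2-fold higher in E10_P56 were 4 of the 7 (C2, C4b, Cfb and Cfd), where 4.40% of 12377 genes were, and none was at least 2-fold higher in adult_pulse, where 4.58% of genes were. The median log2 ratio was -1.10 over the members and -0.07 over all these genes. Cfd reached 100 UMIs through E10_P56, with 8396 UMIs there and 34 in adult_pulse, so its place in these counts rests on E10_P56. Most of its UMIs in E10_P56 lay in cells with adipocyte markers, as given above. Without those cells, 363 Cfd UMIs in E10_P56 and 31 in adult_pulse remained in fibroblast-like cells, and the count of 4 was unchanged. With 1 library on each side these ratios are differences between 2 libraries.

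The difference was not the same in every fibroblast cluster. For C4b, C7 and Cfb it was largest in F0 and F2, where C4b had ratios of 0.197 (0.178 to 0.217) and 0.0888 (0.0770 to 0.102), C7 of 0.236 and 0.266 and Cfb of 0.331 and 0.174. C3 had its lowest ratios in F0 (0.306), F4 (0.475) and F2 (0.484), and 1.03 in F1. In F3 the ratio was near or above 1 for C2 (0.959, 0.853 to 1.08), C7 (0.992, 0.881 to 1.11), Serping1 (1.15) and C4b (1.48, 1.43 to 1.53). In F6 it was above 1 for C3 (1.47, 1.42 to 1.52) and C7 (2.81, 2.36 to 3.34), with only 89 cells of adult_pulse.

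Cluster make-up differed between the libraries as well, with 2569 of 7090 fibroblast-like cells in F0 in adult_pulse and 1088 of 4222 in E10_P56. When the 7 clusters with at least 20 cells in both libraries were given the same weight, a calculation added after the first values were seen, the ratios were 0.902 for Serping1, 0.871 for C3, 0.844 for C4b, 0.803 for C2, 0.790 for C7, 0.491 for Cfb and 0.00593 for Cfd. All 7 stayed below 1, and 2 members, Cfb and Cfd, were then at least 2-fold higher in E10_P56. The Cfd value includes the F3 cells with adipocyte markers. Without F6 and F7 the count was also 2, with a log2 ratio of -0.94 for C4b and -0.76 for C2.

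**Figure D3:**
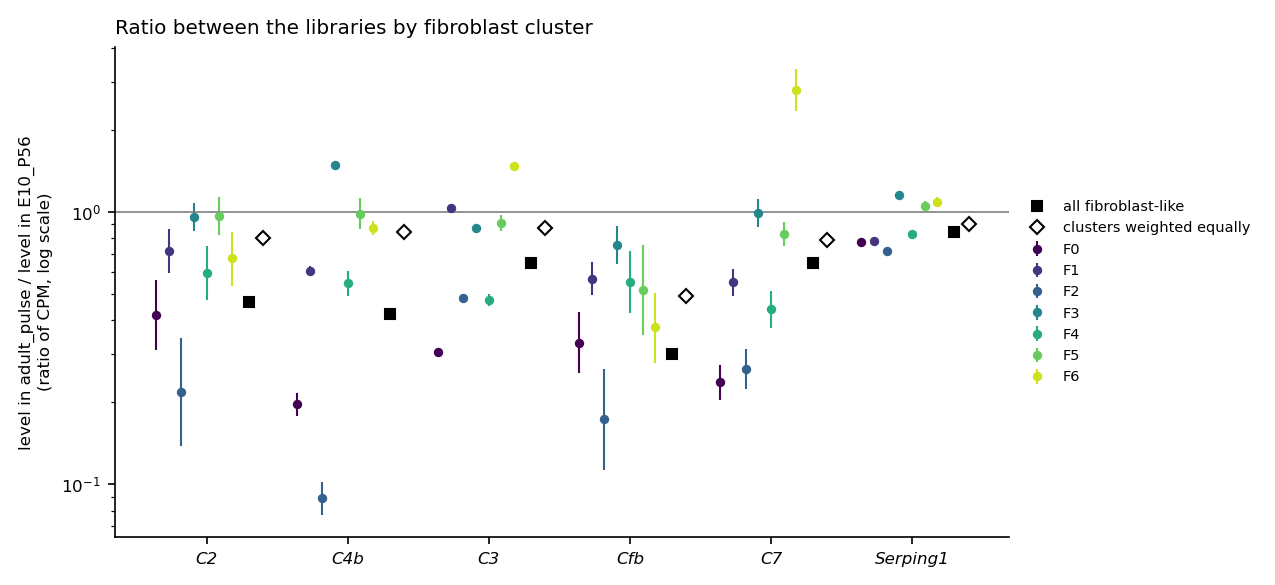
Ratio of the level in adult_pulse to the level in E10_P56 (log axis) for 6 complement genes, by fibroblast cluster F0 to F6 (coloured dots with exact 95% intervals), over all fibroblast-like cells (black squares) and with the 7 clusters weighted equally (open diamonds). F0 and F2 lie lowest for C4b, C7 and Cfb, F6 lies above 1 for C3 and C7, and every diamond is nearer to 1 than its square.

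Summed marker lists that differed between the libraries in fibroblast-like cells are given beside this difference. From E10_P56 to adult_pulse, the 10 dissociation genes summed to 8250 and 11338 CPM, the 11 acute-phase and NF-kB genes to 2319 and 1374, the 12 interferon-gamma-response genes to 2888 and 1918, the 10 mural cell markers to 202 and 65.2, the 8 myofibre markers to 12.2 and 71.6, and the 8 leukocyte markers to 14.5 and 4.79. The 8 adipocyte markers summed to 31.7 and 5.17 CPM, the 8 endothelial markers to 6.36 and 13.1 and the 8 satellite cell markers to 83.2 and 59.3. In F2, where the difference was largest for C4b, C2 and Cfb, myofibre markers summed to 20.3 and 144 CPM. Their part in the difference was not tested.

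Several members were often found in the same fibroblast-like cell. At 1500 UMIs per cell, C3 and C4b shared a cell in 35.8% (34.3% to 37.2%) of fibroblast-like cells of E10_P56 and 13.1% (12.3% to 13.9%) of adult_pulse, beside 29.8% and 8.08% for the product of the single shares. Within F1 the shares were 48.7% and 28.1% and the products 47.0% and 26.4%. Within F4 the shares were 13.6% (10.1% to 17.7%) and 7.42% (5.64% to 9.55%), beside products of 7.77% and 2.64%. C3 and Cfb, whose products combine in the alternative route's enzyme, shared a cell in 6.16% (5.45% to 6.93%) of the fibroblast-like cells of E10_P56 and 1.92% (1.61% to 2.26%) of those of adult_pulse, beside products of 5.12% and 1.25%. In F6 of E10_P56 they shared 15.4% of the cells, and the product of the single shares was the same, 15.4%. In F4 they shared 4.22% (2.32% to 6.97%) and 1.75% (0.937% to 2.98%), beside products of 2.59% and 0.822%. The mean number of the 8 members found per thinned cell was 2.31 in E10_P56 and 1.70 in adult_pulse. It was highest in F6 (3.03 and 2.61), F1 (2.65 and 2.27) and F3 (2.61 and 2.47), and it was 0.826 and 0.702 in pericyte-like cells. At least 3 members were found in 42.5% of fibroblast-like cells of E10_P56 and 16.9% of those of adult_pulse.

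Of 44 other genes of the complement system, 43 were in the feature list, 9 reached 20 CPM in fibroblast-like cells of either library and 26 stayed under 1 CPM in both. The shares of all features at these levels are not given here, so nothing is read from these counts. Complement genes under 1 CPM in both libraries included the C1q chains C1qa, C1qb and C1qc and the mannose-binding lectins and ficolins. All terminal components other than C7 (Hc, C6, C8a, C8b, C8g and C9) were also among them. The proteases of the first complex were present, with C1ra at 272 and 196 CPM in fibroblast-like cells and C1s1 at 480 and 470. C1s1 also stood at 515 and 568 CPM in pericyte-like cells.

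Genes that restrain the cascade had patterns of their own. Cd55, which speeds the decay of the enzymes that cleave C3, stood at 270 and 412 CPM in fibroblast-like cells and was highest in F2 (704 and 997 CPM), the cluster with the lowest C4b and Cfb of adult_pulse, and low in F5 (56.9 and 77.3). Clu, which binds terminal complexes, was highest in F4 (164 and 179 CPM against 33.9 and 26.0 in all fibroblast-like cells). Vtn, another inhibitor of pore formation, stood at 73.1 and 81.6 CPM in fibroblast-like cells and at 2850 and 2813 in pericyte-like cells. Cd59a, a membrane inhibitor of the pore, stood at 28.0 CPM in E10_P56 and 2.40 in adult_pulse. Cr1l, a membrane regulator of C3 cleavage, was 111 and 121 CPM. Outside this group, Colec12, a scavenger receptor of the collectin family, was 90.7 and 124 CPM. Colec11, a collectin of the lectin route, was found mainly in SMCP-like cells (81.2 and 167 CPM), and Cd93, a surface receptor, in endothelial-like cells (714 and 747 CPM).

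Genes with the most similar pattern were sought over 17 populations and fibroblast clusters by the Pearson correlation of log2(CPM + 10), ranked by the lower of the 2 libraries' values among 10662 genes. This is a description over populations that share a library, and closely related clusters are not independent points. For C3 the closest were Serpina3c (lower r 0.910), Csf1 (0.908) and Ifi204 (0.880), and for C4b they were Ces2g (0.840), C3 itself (0.825) and Mmp3 (0.824). Cfb was closest to Serpina3c (0.829), Ces2g (0.802) and Serpina3n (0.802). C2 was closest to Chrdl1 (0.829), Fam78b (0.789) and Ctsc (0.767), C7 to Inmt (0.832), Ppl (0.820) and Dapk1 (0.804), and Serping1 to C1ra (0.843), Naaa (0.815) and Sult5a1 (0.811). Between members, r was 0.854 and 0.825 for C3 with C4b and 0.926 and 0.779 for C4b with Cfb, in E10_P56 and adult_pulse, and 0.0621 and -0.00887 for C2 with C3. Cfd and Masp1 had under 200 UMIs in at least 1 library and were left out of this ranking.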

How the data were processed

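Sorted tdTomato-positive cells of skeletal muscle were profiled as 1 10x Genomics 3′ library for each labelling time. The matrices hold UMI counts per gene and cell that the authors deposited, made with Cell Ranger (3.0.2 and 5.0.0 in the matrix headers) on a modified mm10 genome. The counts are not normalised. Summed over all barcodes they came to 67460919 UMIs for E10_P56 and 69153173 for adult_pulse, which sets the counting error of each value.

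Cells with under 1500 UMIs (the limit of the study) or over 10% mitochondrial UMIs were removed. Doublets were kept, and leaving out the 5% of cells with the highest Scrublet score (scanpy 1.11.5) was an alternative. Counts were log-normalised to 10000 per cell, reduced to 2000 variable genes and 30 principal components (scikit-learn 1.9.0), joined by 20 neighbours and grouped by leidenalg 0.10.2 (resolution 0.5), complement genes left out. This gave 20 clusters. A cluster was named where at least 3 markers of a list were 2-fold higher than in the other cells (5 CPM added) and held by 10% of its cells. Clusters of mural cells (pericyte-, VSMC- and SMCP-like) were told apart against the other mural cells. Fibroblast-like clusters were named last, against the cells that already had a name other than cycling. Conditions were added after the first run had misnamed a fibroblast cluster. A name other than mural or fibroblast-like needed 1 marker of its list among the leading genes of the cluster. The fibroblast-like name was withheld where the list of another type had more markers met. The 34 cells of 1 cluster stayed unnamed. A mismatch with the cell types of the study may come from names rebuilt in this way.

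Levels are UMIs of a gene summed over the cells of a population, as CPM, with exact Poisson intervals. Shares have Clopper-Pearson intervals and ratios have conditional binomial intervals, all at 95% (scipy 1.17.1, Python 3.11.15). PCR, cell loss and animals add error that these intervals do not cover. With 1 library per labelling time no p-value was computed. Ratios used genes with at least 100 UMIs in both populations together. The steps were tested on simulated data.

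The members, marker lists and pathway lists were chosen with earlier results of these data known. Besides the members, pathway genes were named at 20 CPM in fibroblast-like cells of either library or 100 CPM in another population of at least 20 cells, and the 3 most similar genes of each member were named among those with at least 200 UMIs in each library. A pathway gene that met this rule is not reported here.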

Additional observations from a re-analysis of the deposited data

Results flagged for a closer look

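C7 gave opposite orders of fibroblast clusters in the libraries, each beyond counting error. The level in F1 was 1.64 times that in F6 in E10_P56 and 0.321 times in adult_pulse. The level in F2 was 1.63 times that in F6 in E10_P56 and 0.154 times in adult_pulse, and the level in F4 was 2.17 times that in F6 in E10_P56 and 0.340 times in adult_pulse. All 3 comparisons share F6, which in adult_pulse held 89 cells with 175 C7 UMIs. Pairs without F6 also went opposite ways, by a smaller factor in at least 1 library. They were F1 over F3 (1.15 in E10_P56 and 0.640 in adult_pulse) and F3 over F4 (0.655 and 1.48). It was not tested whether F6 holds the same kind of cell in both libraries. The difference between the libraries was not tested, since each labelling time had 1 library.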

How the results depend on the processing

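No paired analysis was possible because each labelling time had 1 library. Of 26 other settings, those that bear on the ratio between the libraries gave 105 recomputed log2 ratios of 7 members, and all 105 kept their sign. The count of members at least 2-fold higher in E10_P56 was 4 of 7 under the naming rule as changed after the first run. Under the naming rule as first written it was 2. It also fell to 2 without clusters F6 and F7 and to 2 with clusters weighted equally, settings chosen after seeing the data. With each library clustered alone, 4 members in place of 7 were at least 2-fold higher in fibroblast-like than in tenocyte-like cells of E10_P56. At a resolution of 1.0, 1 member in place of 4 was highest in fibroblast-like cells of adult_pulse. Split by Pi16 and Col15a1 instead of clusters, 0 of 6 members in place of 5 differed at least 4-fold within the fibroblasts of E10_P56, and likewise 0 in place of 5 in adult_pulse. The Pi16 and Col15a1 setting makes a coarser split than the clusters. The causes of these changes were not tested. The other 148 recomputed counts and summaries stayed within 1.5 times. Of the remaining recomputed values, 235 stayed within their limits and 187 moved beyond them. The limits were the counting interval for levels, shares and log2 ratios of single genes. For the ratio of highest to lowest cluster and the count of similar genes they were 1.5-fold. Of the 18 genes named as most similar, 10 were named again with log2(CPM + 1). Depth limits Masp1 throughout, Cfd in adult_pulse, and the populations of E10_P56 or adult_pulse with under 60 cells.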
